A study of Mus musculus with 4 samples.

Results

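Schwann cell marker genes were examined in nestin reporter cells of mouse bone marrow. The genes were chosen by name, as a list of 8: the transcription factors Sox10 and Egr2, the receptor Ngfr, the glial proteins S100b and Gfap, and the myelin genes Pmp22, Mag and Prx. Of these 8 genes, 7 had a value, each from 1 probe set, among 19938 genes in all, and Prx was not analysed here. The cells came from C57BL/6 mice with a green fluorescent protein reporter driven by the nestin promoter (Nes-gfp), and were sorted as CD45-, CD31-, Ter119- and reporter-positive 10 weeks after transplantation of marrow cells. In the MPN group (myeloproliferative neoplasm, 3 mice) the transplanted cells carried Mx1-cre, a Cre recombinase under an interferon-inducible promoter, together with a mutant form of JAK2, a kinase of cytokine receptors. The control group was 1 Nes-gfp mouse that received control marrow cells. All recipients shared the reporter and the transplantation, and the mutation was introduced with the transplanted marrow cells.

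Schwann cells are the glia of peripheral nerves. Myelinating Schwann cells wrap single large axons in myelin, while non-myelinating ones ensheathe bundles of thin axons, among them the sympathetic fibres that run along marrow arteries. Sox10 is needed at all stages of the lineage, Egr2 (Krox20) switches on the myelin genes, and Ngfr and Gfap are typical of immature and non-myelinating Schwann cells. Several of the genes are not exclusive to these cells. S100b is also made by astrocytes and oligodendrocytes, Mag by oligodendrocytes, Egr2 by macrophages and bone cells, Pmp22 by fibroblasts, and Ngfr, in human marrow, by mesenchymal stromal cells. The study concerned damage to the sympathetic nerves and their Schwann cells in the marrow niche. The arrays measured sorted reporter cells and not the nerves.

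The promoters of S100b and Egr2 are shown because these 2 genes had the largest differences of the 7, in opposite directions. Each window runs from 250 bases before to 50 bases after a transcription start in RefSeq (GRCm38.p6), on the plus strand. That of S100b lies at chr10:76253586-76253885, and that of Egr2 at chr10:67537619-67537918. For Egr2 the table lists 5 starts, and the window shown belongs to the middle one by position. Capitals mark a CArG box, the site of serum response factor, which was searched for after the sequence had been read.
S100b: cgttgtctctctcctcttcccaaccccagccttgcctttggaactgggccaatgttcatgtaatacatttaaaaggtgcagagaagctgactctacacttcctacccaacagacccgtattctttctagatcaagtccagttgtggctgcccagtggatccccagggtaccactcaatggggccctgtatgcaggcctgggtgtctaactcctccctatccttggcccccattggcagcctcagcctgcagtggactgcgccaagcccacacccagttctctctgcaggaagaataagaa
Egr2: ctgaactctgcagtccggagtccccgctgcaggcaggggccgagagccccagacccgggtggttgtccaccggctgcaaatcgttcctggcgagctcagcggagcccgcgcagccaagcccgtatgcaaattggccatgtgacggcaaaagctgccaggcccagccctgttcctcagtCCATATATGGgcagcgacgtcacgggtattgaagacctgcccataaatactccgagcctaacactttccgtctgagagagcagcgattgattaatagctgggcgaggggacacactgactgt

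The CArG box starts 72 bases before the Egr2 start site and reads CCATATATGG. A CArG box was present in 1.63% of 32851 mouse promoter windows of the same length of 300 bases, and was absent from the S100b window. It was present in 4 of the 5 Egr2 windows, some of which overlap. The SOX core, ACAAAG or ACAATG on either strand, was found in 28.6% of all windows, and in neither window shown. The EGR motif, GCGTGGGCG or GCGGGGGCG on either strand, was found in 3.47% of all windows, and also in neither. Among the other listed genes with windows in the table, Mag had the SOX core in 2 of its 3 windows, and Ngfr, Gfap, Pmp22 and Prx had it in none. The windows held GC contents of 53.7% for S100b and 60% for Egr2.

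Values are log2 as deposited, made with RMA. Background was set from 1190 receptor genes of smell and pheromone sensing (olfactory and vomeronasal), assumed here to be mostly silent in marrow. The limit, the 95th percentile of their mean over the 4 arrays, was 5.21. These receptor genes were themselves higher on the MPN arrays, with a median log2 difference from the control of 0.29, 0.33 and 0.14 on MPN arrays 1, 2 and 3, while the median over all genes was 0.18. Ptprc, which encodes CD45, had 10.16, 9.46 and 10.40 in the MPN mice, against 7.07 in the control mouse, although the sort selected against its protein. Nes, whose promoter drives the reporter, was under the limit in both groups, at 4.56, 3.92 and 4.26 in the MPN mice, against 4.26 in the control mouse. Xist, which coats the silenced X chromosome of females, had 8.37, 9.31 and 9.22 in the MPN mice, against 3.30 in the control mouse. The labels give no sex of recipients or donors, so sex and group cannot be told apart.

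Of the 7 genes, S100b was higher on all MPN arrays, Egr2 was lower on all of them, Pmp22 was split among the MPN mice, and Sox10, Ngfr, Gfap and Mag lay within the range of the receptor genes. None of the 7 passed limma's test at an adjusted p of 0.05, and neither did any of the 19938 genes (0%), of which 2511 (12.6%) had an unadjusted p under 0.05. That unadjusted level was reached by 2 of the 7: S100b, higher in MPN as were 3.97% of all genes at that level, and Egr2, lower in MPN as were 8.63%. A difference of at least 2-fold on each MPN array was seen upward in 1 gene, S100b, against 1.13% of all genes, and downward in 1 gene, Egr2, against 5.78% of all genes. All 3 MPN arrays lay above the control for 4 of the 7 genes, against 46.8% of all genes, and below it for 1, against 21.1%, so that the groups did not overlap for 5 of the 7, against 67.8% of all genes. A group mean above the background limit was found for 5 of the 7 genes, against 60% of all genes. The median log2 difference over the 7 was 0.29, beside 0.18 over all genes. The control is 1 array, and its spread was taken from the MPN mice, which leaves 2 residual degrees of freedom. In limma each gene's variance is also drawn toward a value estimated over all genes, with 1.39 prior degrees of freedom.

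**Figure D1:**
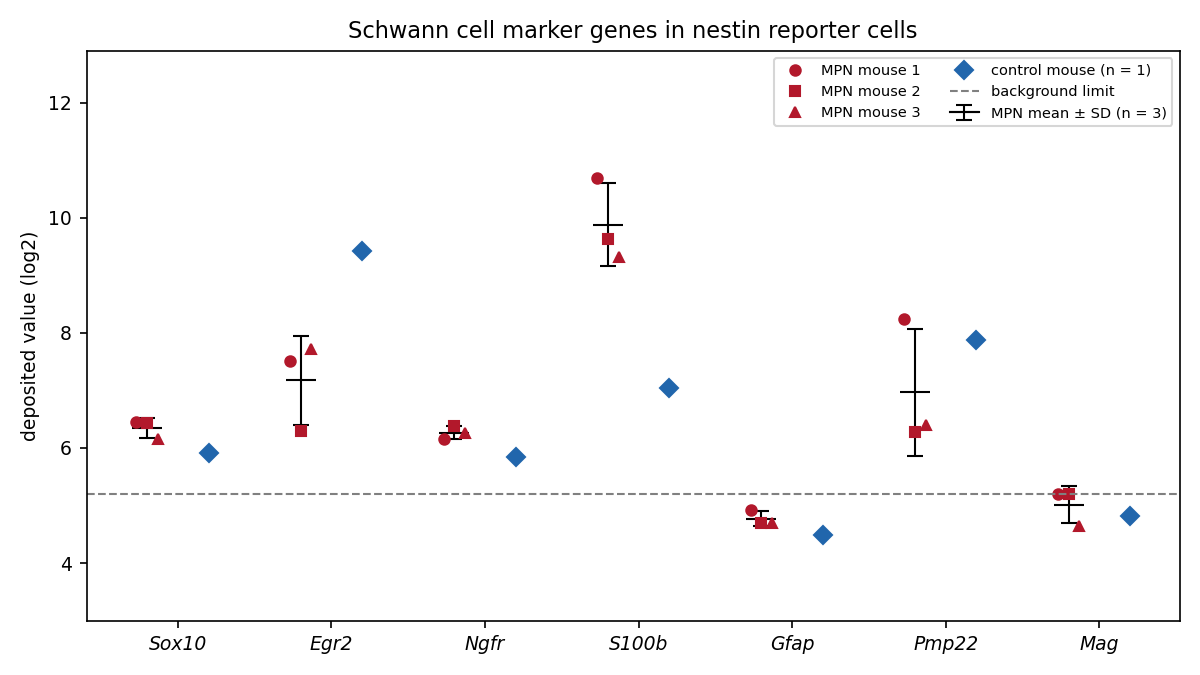
Deposited log2 value of each Schwann cell marker gene on the 3 MPN arrays (red, with mean ± SD) and the control array (blue), with the background limit of 5.21 as a dashed line. S100b lies at least 2-fold higher and Egr2 at least 2-fold lower on all MPN arrays. Pmp22 is high in MPN mouse 1 alone among the MPN mice, and Gfap and Mag have group means under the limit.

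Sox10, the transcription factor that specifies and maintains the Schwann cell lineage, had 6.46, 6.44 and 6.15 in the MPN mice, against 5.91 in the control mouse. All MPN values lay above the control, by a small amount. The mean was 6.35 ± 0.17 (SD, n = 3) in MPN, a log2 difference of 0.44 with a standard error (SE) of 0.21 and adjusted p = 0.449 with limma. The differences of the single arrays, 0.55, 0.53 and 0.25, all fell inside the middle 95% of the receptor genes, which ran from -0.08 to 0.96, from -0.10 to 1.01 and from -0.22 to 0.63 on MPN arrays 1, 2 and 3. A larger absolute difference was found in 240 of the 1190 receptor genes. With the 99th percentile of the receptor genes as the limit, 5.96, Sox10 was above background in the MPN group only.

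Egr2, the zinc finger factor that drives myelination, had 7.51, 6.29 and 7.72 in the MPN mice, against 9.42 in the control mouse. Every MPN array was lower, MPN mouse 2 the most, and the groups did not overlap. The mean was 7.18 ± 0.77 (SD, n = 3) in MPN, and the log2 difference was -2.24 (SE 0.70), so that the control level was 4.73 times the MPN level. The limma test gave adjusted p = 0.373. None of the receptor genes (0 of 1190) differed by as much in either direction. Leaving out each MPN mouse in turn gave differences from -2.52 to -1.80.

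Ngfr, the low-affinity neurotrophin receptor p75, had 6.16, 6.38 and 6.25 in the MPN mice, against 5.85 in the control mouse. The 3 MPN mice were close together and all above the control. The mean was 6.27 ± 0.11 (SD, n = 3) in MPN, with a log2 difference of 0.41 (SE 0.17) and adjusted p = 0.436 with limma. Each array's difference fell inside the receptor range for that array, and 289 of the 1190 receptor genes differed by more. As with Sox10, the control value was under the stricter limit of 5.96.

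S100b, a calcium-binding protein of glia, had 10.69, 9.64 and 9.31 in the MPN mice, against 7.04 in the control mouse. MPN mouse 1 was the highest, and the lowest MPN mouse was still more than 2-fold above the control. The mean was 9.88 ± 0.72 (SD, n = 3) in MPN, a log2 difference of 2.84 (SE 0.66), or 7.15-fold, with adjusted p = 0.270 with limma. The difference lay at percentile 99.8 of those of all genes, and 0 of the 1190 receptor genes differed by as much. Without MPN mouse 1 it was 2.43, and over the cases that left out 1 MPN mouse it reached 3.12.

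Gfap, the intermediate filament of astrocytes and non-myelinating Schwann cells, had 4.92, 4.70 and 4.70 in the MPN mice, against 4.49 in the control mouse. All values were under the background limit. The mean was 4.77 ± 0.13 (SD, n = 3) in MPN, a log2 difference of 0.29 (SE 0.18), close to the 0.26 of the median receptor gene. The limma adjusted p was 0.505. The deposited values of MPN mice 2 and 3 were identical, as at least 2 MPN arrays were for 1598 of all genes (8.01%), which narrows the SD.

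Pmp22, a membrane protein of compact peripheral myelin, had 8.24, 6.27 and 6.40 in the MPN mice, against 7.87 in the control mouse. MPN mouse 1 was above the control and the other 2 mice were below it, so the groups overlapped. The mean was 6.97 ± 1.10 (SD, n = 3) in MPN, with a log2 difference of -0.90 (SE 0.99) and adjusted p = 0.665 with limma. Without MPN mouse 1 the difference was -1.53 (adjusted p = 0.453), and without MPN mouse 2 it was -0.55. The differences of -1.60 and -1.47 in MPN mice 2 and 3 lay below the receptor range, and the 0.37 of MPN mouse 1 lay inside it.

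Mag, an adhesion molecule of the inner myelin layer that contacts the axon, had 5.19, 5.21 and 4.64 in the MPN mice, against 4.82 in the control mouse. MPN mice 1 and 2 were slightly above the control and MPN mouse 3 below it. The mean was 5.01 ± 0.32 (SD, n = 3) in MPN, under the background limit, as was the control. Its log2 difference was 0.20 (SE 0.32), with adjusted p = 0.766 with limma. The sign turned under cyclic loess (-0.0039) and when the receptor genes were given the same median on all arrays (-0.061).

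**Figure D2:**
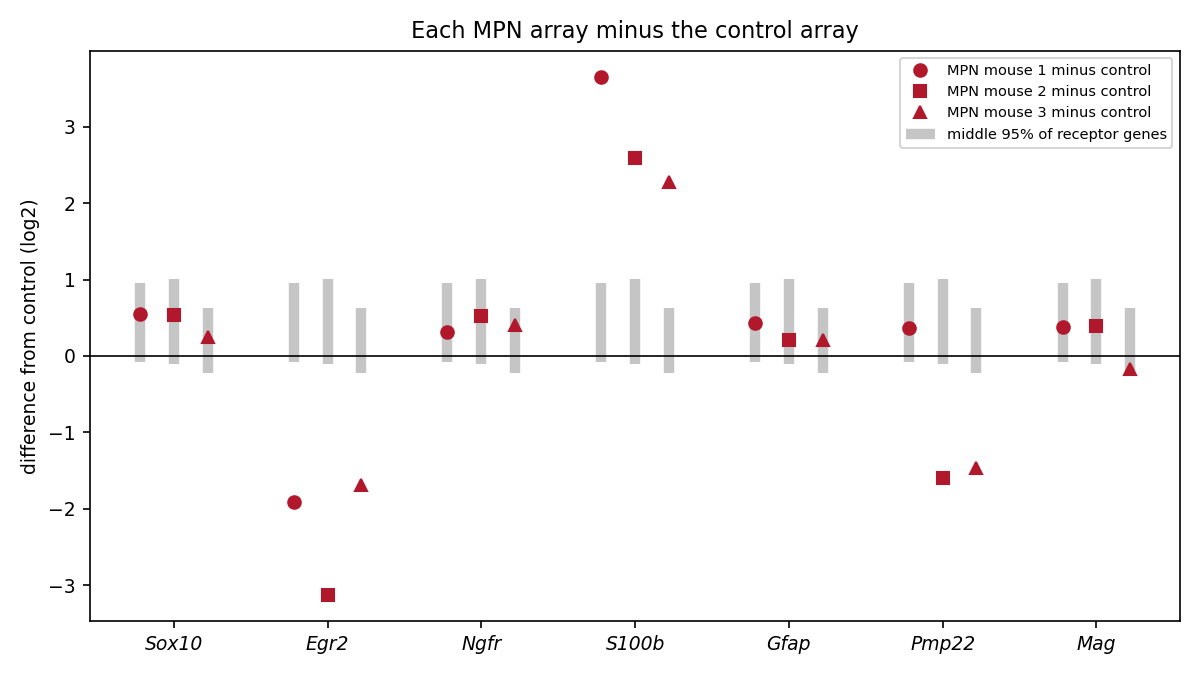
Log2 difference from the control array on each MPN array, with grey bars for the middle 95% of 1190 receptor genes on the same array. S100b lies above the bars and Egr2 below them on all 3 arrays, Pmp22 lies below them in MPN mice 2 and 3, and the other 4 genes lie inside.

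Set against the receptor range of each array, 4 of the 7 genes lay inside it on all 3 arrays, 1 above and 1 below. Over all 19938 genes, 51.1% lay inside it on all 3 arrays, 1.45% above and 16.8% below. With the receptor genes at the same median on all arrays, the differences were 0.19 (SE 0.17) for Sox10, 0.16 (SE 0.18) for Ngfr and 0.03 (SE 0.20) for Gfap. The MPN mice also differed among themselves. MPN mouse 1 had the highest value for Sox10, S100b, Gfap and Pmp22, MPN mouse 2 for Ngfr and Mag, and MPN mouse 3 for Egr2.

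A wider list of Schwann cell genes gave mostly small differences. It held 22 further genes with a value. None of the 22 passed limma's test at an adjusted p of 0.05, and 6 had an unadjusted p under 0.05, against 12.6% of all genes. Of these 6, 3 were higher in MPN, against 3.97% of all genes, and 3 were lower, against 8.63%. Of the 3 higher, Foxd3 and Drp2 were under the background limit in both groups and inside the receptor range on all 3 arrays, while Mbp was not. Of the 3 lower, Scn7a was under the limit in both groups. Over the 22 genes the median log2 difference was 0.34, beside 0.18 over all genes. All 3 MPN arrays were above the control for 15 of the 22 genes and below it for 3, against 46.8% and 21.1% of all genes. The receptor genes were also shifted upward, with medians of 0.29, 0.33 and 0.14 on MPN arrays 1, 2 and 3. Their share above the control on all 3 arrays was not counted. At least 2-fold on each MPN array, 1 of the 22 was higher and 1 lower, against 1.13% and 5.78% of all genes. Inside the receptor range on all 3 arrays lay 16 of the 22, against 51.1% of all genes. The 22 included 10 with a group mean above background, against 60% of all genes. The list was made with earlier results of these data known.

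The 5 largest differences of that list were in Mbp, Ncam1, Fabp7, Scn7a and Mal. Mbp, the basic protein of myelin, had 10.88, 10.44 and 10.23 in the MPN mice, against 8.18 in the control mouse, a log2 difference of 2.34 (SE 0.33, limma adjusted p = 0.151). Like S100b, it was at least 2-fold higher on each MPN array and highest in MPN mouse 1. Ncam1, an adhesion molecule of non-myelinating Schwann cells and neurons, had 5.98, 5.53 and 6.05 in the MPN mice, against 7.64 in the control mouse. It was the 1 gene of the list at least 2-fold lower on each MPN array, with a log2 difference of -1.79 (SE 0.29, limma adjusted p = 0.174). Fabp7, a fatty acid binding protein of immature glia, had 4.79, 5.32 and 4.64 in the MPN mice, against 6.18 in the control mouse. Its difference was -1.26 (SE 0.35), with a mean under the background limit in MPN and a value above it in the control. Scn7a, a sodium channel family member, differed by -0.71 (SE 0.20) and was under the limit in both groups. Mal, a lipid raft protein of myelin, differed by 0.71 (SE 0.24), inside the receptor range on 2 of the 3 arrays.

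Among early lineage genes, Foxd3 (log2 difference 0.63), Sox2 (0.43), Tfap2a (0.26), Erbb3 (0.22), the neuregulin receptor of Schwann cells, and Cdh19 (-0.02) had means under the background limit in both groups. The same held for Dhh (0.28), a hedgehog ligand that Schwann cells secrete, and Gjb1 (0.46), the connexin of myelinating Schwann cells. Drp2, a partner of periaxin, differed by 0.67 (SE 0.17) and was also under the limit in both groups. Pou3f1, a factor of the promyelinating stage (log2 difference 0.13), and Erbb2, the co-receptor of Erbb3 (0.04), had means above the limit in both groups, as did Cnp (0.36) and Cldn19 (0.52). The adhesion molecule L1cam (0.44) and the growth cone protein Gap43 (0.60, SE 0.60) had means above the limit in MPN only. Gap43 had 6.18, 5.16 and 4.95 in the MPN mice, so that MPN mouse 1 alone was above the limit. The remaining genes, Artn (0.44), Cadm4 (0.32) and Pllp (0.06), were under it in both groups.

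**Figure D3:**
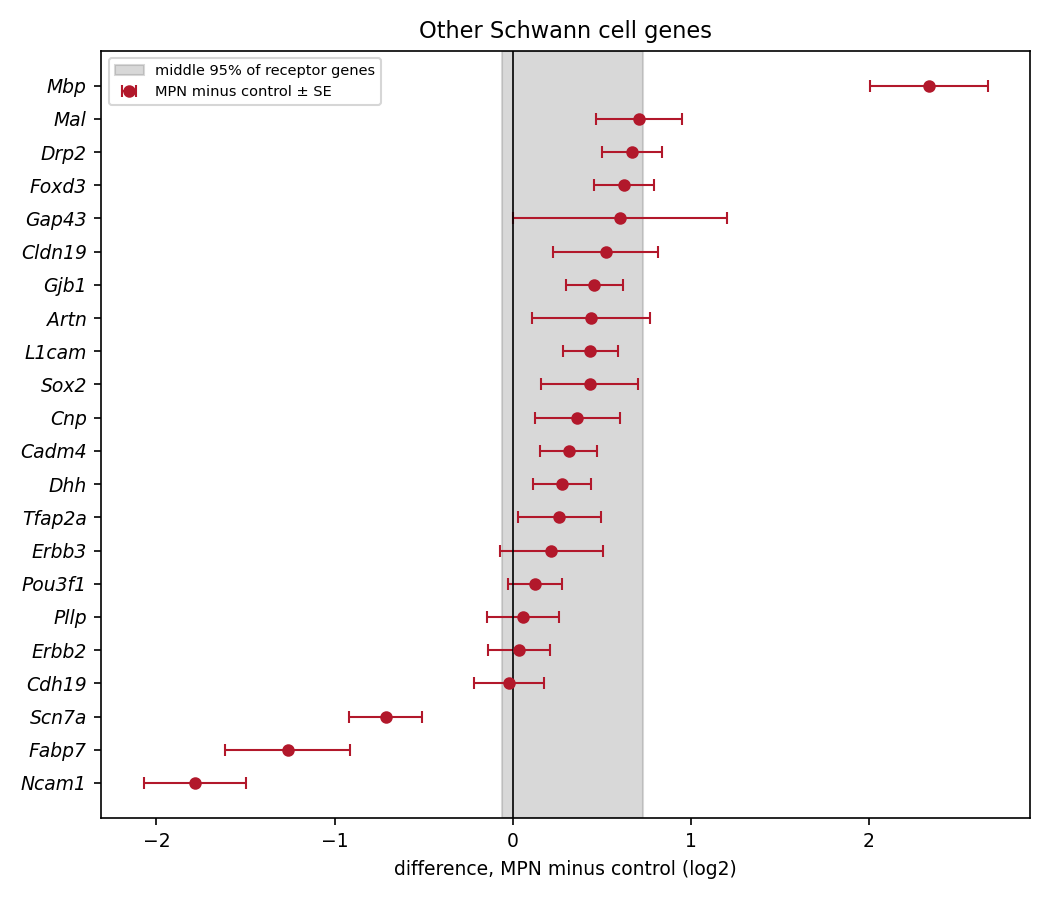
Log2 difference, MPN minus control, with the SE of the limma fit, for 22 other Schwann cell genes, and a grey band for the middle 95% of the receptor genes (-0.06 to 0.73). Mbp lies above the band, Ncam1, Fabp7 and Scn7a lie below it, and the other genes have their mean difference inside it.

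S100b and Mbp are shared with the glia of the brain, and markers of oligodendrocytes, its myelin-forming cells, were therefore read on the same arrays. Of 10 such genes, 8 were above the control on all 3 MPN arrays and 0 below it on all 3, against 46.8% and 21.1% of all genes. A group mean above the background limit was found for 5 of the 10, against 60% of all genes. Genes near background, such as the receptor genes, were themselves shifted upward on the MPN arrays. Mobp, a myelin-associated basic protein of oligodendrocytes, had 11.32, 10.58 and 10.38 in the MPN mice, against 6.85 in the control mouse. Ermn, a cytoskeletal protein of oligodendrocytes, had 9.86, 8.03 and 6.99 in the MPN mice, against 4.30 in the control mouse. In both, as in S100b and Mbp, MPN mouse 1 was the highest and MPN mouse 3 the lowest of the MPN mice, all above the control. The share of all genes with that order was not counted. The receptor genes also had their lowest median difference, 0.14, on MPN array 3. The limma log2 differences were 3.91 (SE 0.46, adjusted p = 0.129) for Mobp and 3.99 (SE 1.29, adjusted p = 0.388) for Ermn.

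Of the other 8 genes of that list, the lineage factors Olig1 and Olig2, the myelin genes Mog and Opalin, and Aspa had group means under the background limit in both groups. Their log2 differences ran from -0.33 for Aspa to 0.63 for Olig2. Nkx2-2, also a lineage factor, was at 5.36, 5.56 and 5.23 in the MPN mice, against 4.86 in the control mouse, and so above the limit in MPN only. Cldn11, a tight junction protein of myelin (log2 difference 0.41), and Cspg4, a proteoglycan of oligodendrocyte precursors and pericytes (0.01), had means above the limit in both groups. The mean log2 value over the 10 genes was 6.11, 5.96 and 5.51 in the MPN mice, against 4.81 in the control mouse, and the median difference was 0.48. Of 6 astrocyte and satellite glia genes, 5 were above the control on all MPN arrays, against 46.8% of all genes. Kcnj10, a glial potassium channel, differed by 1.33 (SE 0.38) and Slc1a2, a glutamate transporter, by 0.83 (SE 0.31), and Aqp4, the water channel of astrocytes, was under the limit in both groups. The mean over these 6 ran from 4.62 to 4.996 in the MPN mice, against 4.31 in the control mouse. Of 11 neuron genes, 7 were above the control on all MPN arrays, against 46.8% of all genes. A group mean above the limit was found for 5 of the 11, against 60% of all genes. The same held for 3 of the 6 astrocyte and satellite glia genes. The neurofilament gene Nefl was the 1 gene of the 11 at least 2-fold higher on each, against 1.13% of all genes. Nefl differed by 1.98 (SE 0.49) and Nefh by 0.98 (SE 0.30), and the mean over the 11 was 5.57, 5.25 and 5.08 in the MPN mice, against 4.75 in the control mouse. The part of these cell types in the S100b difference was not tested.

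**Figure D4:**
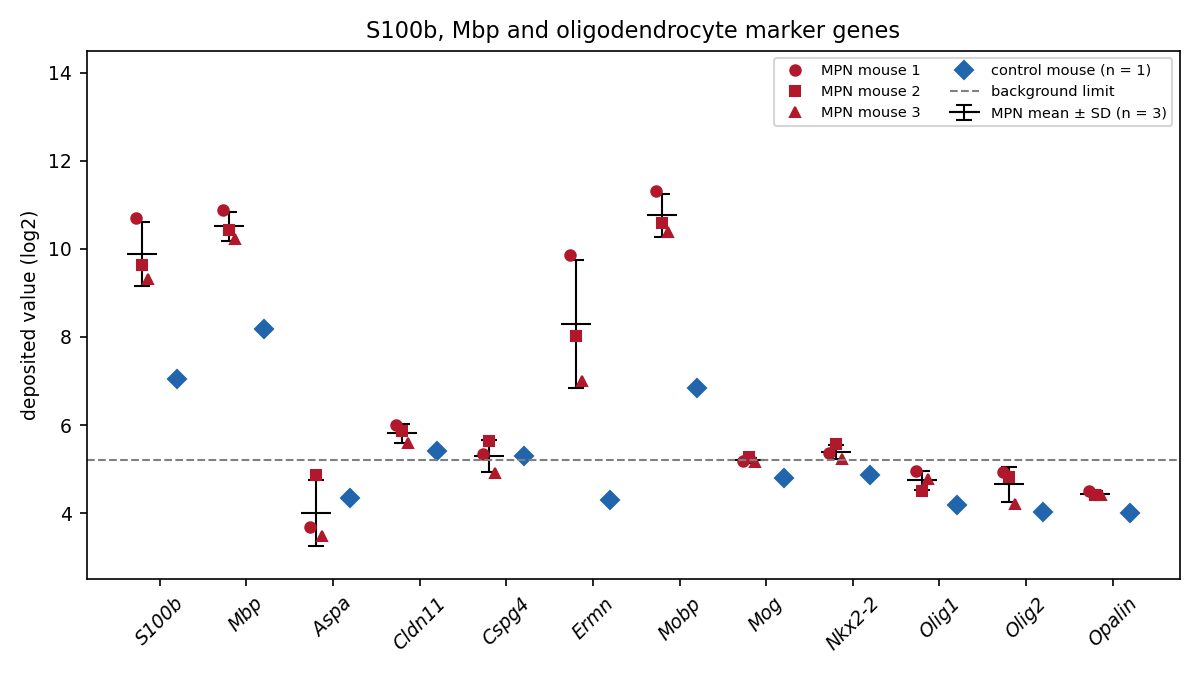
Deposited log2 values of S100b, Mbp and 10 oligodendrocyte marker genes on the 3 MPN arrays (red, with mean ± SD) and the control array (blue), with the background limit dashed. S100b, Mbp, Ermn and Mobp are at least 2-fold higher on every MPN array. Olig1, Olig2, Mog, Opalin and Aspa have group means under the limit, Nkx2-2 lies above it in MPN only, and Cldn11 and Cspg4 lie above it in both groups.

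Most listed markers of leukocytes, neutrophils and mesenchymal stroma also differed between the groups. Their part in the results on S100b, Egr2 and Pmp22 was not tested. Of 12 mesenchymal stromal genes, 12 were at least 2-fold lower on each MPN array, against 5.78% of all genes. Their mean was 6.49, 5.79 and 6.68 in the MPN mice, against 10.21 in the control mouse. Kitl (log2 difference -5.89) and Adipoq (-4.76) had the largest differences. Egr2 was also lower on all 3 MPN arrays, as were 21.1% of all genes. Of 10 pan-leukocyte genes, 9 were at least 2-fold higher on each MPN array, against 1.13% of all genes. The list had means of 9.82, 9.04 and 10.06 in the MPN mice, against 6.91 in the control mouse. Cd53 (3.67) and Cd52 (3.42) led that list. Of 10 neutrophil genes, 9 were at least 2-fold higher on each MPN array, against 1.13% of all genes, led by Mmp8 (4.77) and Ly6g (4.31). The neutrophil list had means of 11.23, 10.70 and 11.35 in the MPN mice, against 8.06 in the control mouse. These levels come from sorted pools of cells, in which fewer cells of a type and less RNA per cell cannot be told apart.

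Among 6 monocyte and macrophage genes with a value, 1 was at least 2-fold higher on each MPN array (Ccr2, 3.49) and 1 at least 2-fold lower (Mertk, -2.25). Over all genes the shares were 1.13% higher and 5.78% lower. The mean over the 6 was 5.42, 5.86 and 5.92 in the MPN mice, against 5.25 in the control mouse. The endothelial list, with Erg (0.74) and Pecam1 (0.60) leading, had a median difference of 0.43 over 6 genes and means of 4.90, 4.86 and 4.69 in the MPN mice, against 4.41 in the control mouse. The erythroid list had a median of 0.40 over 3 genes, led by Epor (0.51) and Klf1 (0.40). The third, Alas2 (-0.16), went the other way, with all 3 MPN arrays below the control. Klf1 was under the background limit in both groups and Alas2 above it in both. The erythroid means were 5.48, 5.49 and 5.07 in the MPN mice, against 5.10 in the control mouse. The middle 95% of the receptor genes ran from -0.06 to 0.73 for the mean difference. Of the endothelial and erythroid genes named, Erg lay just above that range, Alas2 lay below it, and the others lay inside.

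The genes whose differences on the 3 MPN arrays were most like those of S100b, by root mean square distance, were Kif5c, Pea15a and Gmfg. Kif5c, a kinesin motor chain of neurons, differed from the control by 3.88, 2.68 and 1.91 on MPN arrays 1, 2 and 3 (distance 0.25), against 3.65, 2.59 and 2.27 for S100b. Pea15a, a phosphoprotein abundant in astrocytes, differed by 3.67, 2.41 and 1.68 (distance 0.36), and Gmfg, a glia maturation factor family member found mainly in blood cells, by 2.95, 2.63 and 2.31 (distance 0.41). All 3 genes had their highest value in MPN mouse 1, as S100b did, which follows from how they were chosen. The nearest genes to Egr2 were Serpinf1, Sec63 and Vezf1. Serpinf1, which encodes the secreted factor PEDF, differed by -1.99, -3.20 and -1.68 (distance 0.07), against -1.91, -3.12 and -1.69 for Egr2. Sec63 of the endoplasmic reticulum translocon (distance 0.14) and the zinc finger gene Vezf1 (distance 0.15) were also lowest in MPN mouse 2. With 3 arrays compared, such a likeness describes these mice only.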

How the data were processed

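Per the labels' protocols, RNA was prepared with a Picopure kit, and per the design text it was amplified (NuGEN Ovation) and put on Affymetrix mouse gene arrays. The deposited log2 values were made by the authors with RMA, per the submitters' processing notes, and ran from 1.55 to 13.63. RMA compresses differences near background. Its version is not given in the sources used here, nor is a genome build. With arrays there is no read depth, and precision is limited by their number.

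Of 35556 probe sets, 21789 had 1 gene symbol in the platform's table, 1621 had several and 12146 were unnamed here. The probe set with the highest mean per gene was kept (19938 genes). MPN and control were compared with limma 3.58.1 (R 4.3.3; lmFit, eBayes, two-sided, Benjamini-Hochberg over all genes, threshold 0.05). The titles call each sample a mouse. The p-values measure the spread of the 3 MPN arrays, drawn toward that of all genes by eBayes and assumed for the control too. The fit was tested on simulated data.

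The genes and lists were chosen with earlier results of these data known. Named are the listed genes, the 5 other Schwann cell genes and 2 genes of each marker list with the largest difference, and the 3 genes most like each of S100b and Egr2. Ptprc, Nes and Xist were named as checks. Other names (further Schwann cell, oligodendrocyte, astrocyte and erythroid genes of the lists) were chosen after their values were seen. The alternatives left out each MPN mouse, or changed the probe set rule, the filter on low values, the scaling, the variance prior or the background limit.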

Additional observations from a re-analysis of the deposited data

How the results depend on the processing

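None of the 7 Schwann cell marker genes, and none of the 22 other Schwann cell genes, passed the adjusted threshold under any alternative run. Over all genes the count past the threshold, 0 as reported, was 95 after cyclic loess, 153 when the receptor genes were given the same median on all arrays and 167 with a trended, robust variance prior. It was 0 under the other alternatives, and the cause was not tested. Of the 7, S100b was the 1 gene at least 2-fold higher on each MPN array under all alternatives for which this was counted. Only the changes of scaling could have removed S100b from that count. It had 1 probe set and lay above the background limit, and leaving out a mouse can only keep or add genes. The number at least 2-fold lower ran from 1 to 2 when 1 MPN mouse was left out, the second being Pmp22 without MPN mouse 1. The S100b log2 difference ran from 2.43 to 3.12 and its adjusted p from 0.202 to 0.570. That of Egr2 ran from -2.52 to -1.80, with adjusted p from 0.286 to 0.616. That of Pmp22 ran from -1.53 to -0.54, with -0.54 after repeated quantile normalisation. Mag turned to -0.0039 after cyclic loess and -0.061 with the receptor genes at the same median, within its SE. Sox10 kept its sign between 0.19 and 0.60, Ngfr between 0.16 and 0.53 and Gfap between 0.03 and 0.32. With either other background limit, 5 of the 7 genes stayed above it in at least 1 group. No paired analysis was possible because there was a single control mouse, so that the groups share fewer than 2 replicate numbers. Signals near background limit what can be said of Gfap and Mag.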
